A study of Rattus norvegicus with 4 samples.

Results

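The 39 genes described here encode the transporters and enzymes that carry glucose into a cell, break it down to pyruvate, exchange pyruvate with lactate, pass pyruvate into the mitochondrion and oxidise it in the citrate cycle. They were taken by gene symbol from an expression table of 18699 genes, and all 39 were found there. All 39 also passed the filter on low counts, which left 14519 genes to test. The cells were ventricular myocytes from wild-type Sprague Dawley rats 1 to 3 days old, kept in culture with 15% serum and bromodeoxyuridine at 0.1 mM, an agent that holds back dividing cells that are not myocytes. A pair of libraries came from cells given vehicle, whose composition the labels do not state, and another pair from cells given 1 µM carfilzomib, for 24 h in both cases. Carfilzomib binds the proteasome irreversibly and is a drug for multiple myeloma, and the series was made to study its toxicity to heart muscle. Whether libraries in 1 group stem from different animals or cultures is not said in the labels, so p-values measure the spread between these libraries only, which may be technical.

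Glycolysis splits glucose to pyruvate in the cytosol with a small yield of ATP, and lactate dehydrogenase turns pyruvate to lactate and back. Pyruvate dehydrogenase, held in check by the PDK kinases, commits pyruvate to acetyl-CoA, and the citrate cycle strips electrons from it for the respiratory chain. The neonatal heart uses glucose and lactate heavily, and it shifts toward fatty acids and mitochondrial oxidation as it matures.

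The 4 libraries held 18655450 to 18884333 estimated counts each, and the median log2 fold change of all tested genes was 0.00. Levels in CPM are counts scaled to a common library size with edgeR's TMM factors, and not to gene length. The myocyte label was met in the vehicle libraries by Myh6 at 9820 CPM and Tnnt2 at 3342 CPM, but the fibroblast marker Col1a1 stood at 19670 CPM there. In FPKM, which is scaled to gene length, Myh6, Tnnt2 and Col1a1 had vehicle means of 1627, 3019 and 3364. On that scale the vehicle sums were near each other, at 5416 for the myocyte markers and 5366 for the fibroblast markers. All 6 myocyte markers fell with carfilzomib, from a summed 15099 to 15540 CPM in vehicle to 4253 to 4488 CPM. All 8 fibroblast markers fell, from a summed 27685 to 28241 CPM to 14787 to 15511 CPM. All 4 smooth muscle markers fell too, from 3705 to 3844 CPM to 1259 to 1296 CPM. Of 4 endothelial markers 1 rose and 1 fell, with sums of 56.1 to 56.9 CPM and then 58.7 to 59.1 CPM. Of 5 macrophage markers 1 rose and 4 fell, with sums of 53.1 to 55.3 CPM and then 42.3 to 47.0 CPM. No marker on these lists had a group mean of 0, and the lowest was Adgre1 at 1.19 CPM in vehicle and 0.184 CPM with carfilzomib. In such bulk samples fewer cells of a type and less RNA per cell cannot be told apart. The part of cell composition in the values below was not tested.

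Carfilzomib moved most of the 39 genes, by small amounts, and in opposite directions at different steps. In edgeR's quasi-likelihood test 29 of 39 genes (74.4%) passed a Benjamini-Hochberg adjusted p of 0.05, against 60.7% of all tested genes. Of these 12 rose, where 30.6% of all tested genes rose, and 17 fell, where 30.1% of all tested genes fell. The changes were modest: 5 of 39 (12.8%) passed with at least a 1.5-fold change, against 25.0% of all tested genes. Those 5 were Pfkfb2 and Pgam1, which rose, and Ldhb, Idh2 and Idh3a, which fell. A stricter test against a 1.2-fold change (edgeR's glmTreat) kept 16 of 39 (41.0%), beside a background of 36.6%. The median log2 fold change of the 39 genes was -0.04, and the median size without sign was 0.29, against 0.34 for all tested genes. All 29 called genes had groups that did not overlap, as did 35 of the 39 in all. The share among all tested genes was not counted, so this says nothing particular about the 39 genes. With 2 libraries per group such a separation alone has an exact permutation p of 0.333. In 10 members the deposited count was not whole in at least 1 library, as when reads are divided between similar genes, and their values are less certain: Hk2, Pfkfb2, Aldoa, Tpi1, Gapdh, Pkm, Pdha1, Pdk1, Cs and Ogdh. Among the 29 members with whole counts 8 rose and 13 fell, beside 2947 and 2973 of all 9300 tested genes with whole counts.

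**Figure D1:**
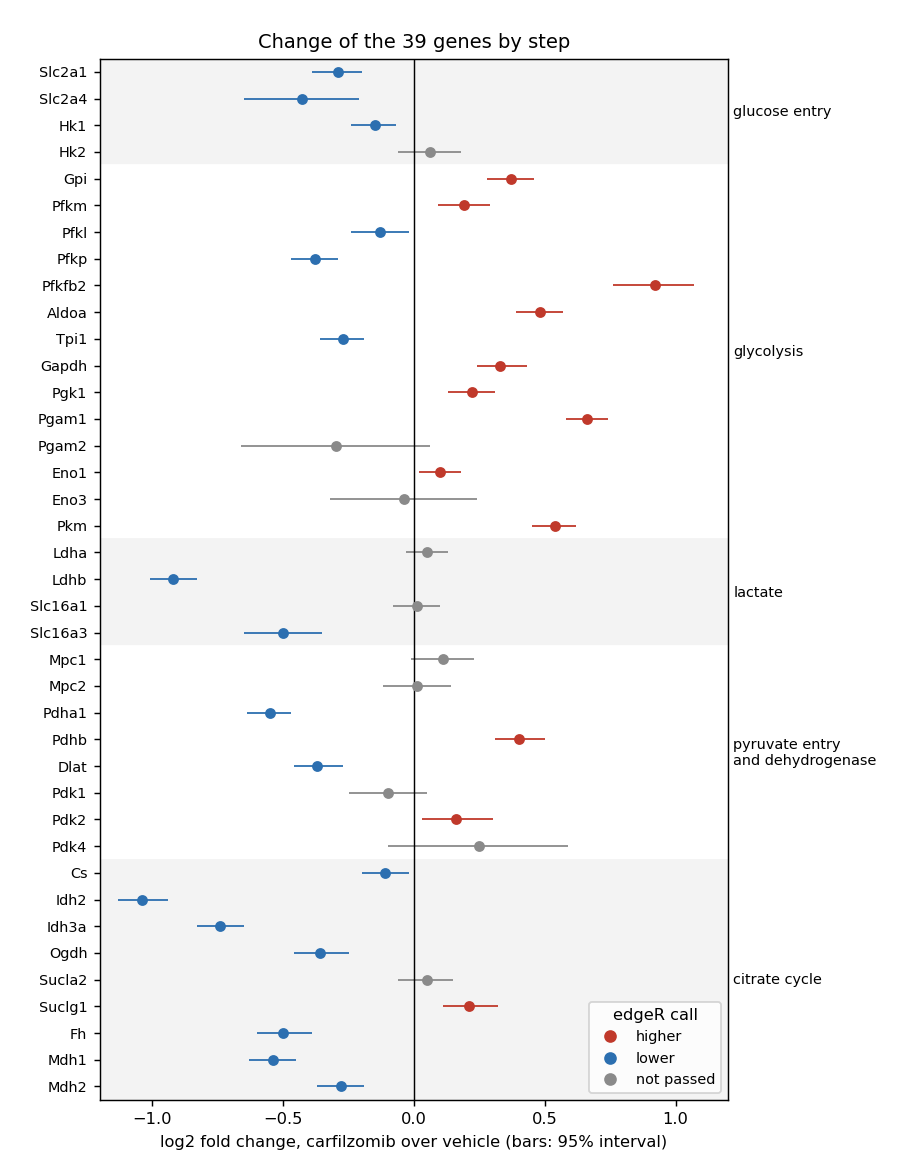
Log2 fold change of each of the 39 genes, carfilzomib over vehicle, from edgeR with 2 libraries per group (points) and its 95% interval (bars), ordered along the pathway and coloured by call. Most points of glycolysis lie to the right of 0 and most points of the citrate cycle to the left, with Idh2 at -1.04 and Pfkfb2 and Ldhb at 0.92 and -0.92.

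The steps parted when their members were counted, beside 30.6% of all tested genes that rose and 30.1% that fell. Glucose entry had 3 of 4 genes lower and a median log2 fold change of -0.22. Glycolysis had 9 of 14 genes higher and 3 lower, with a median of 0.21. Among its 9 members with whole counts 5 rose and 2 fell, with a median of 0.10. Beside these stand 2947 and 2973 of all 9300 tested genes with whole counts. Lactate handling had 2 of 4 lower and a median of -0.24, while pyruvate entry and dehydrogenase had 2 of 8 higher, 2 lower and a median of 0.06. The citrate cycle had 7 of 9 genes lower and 1 higher, with a median of -0.36. Among its 7 members with whole counts 5 fell and 1 rose, with a median of -0.50. The summed level per length gave a similar order. In FPKM, the authors' unit scaled to gene length and depth, the glycolysis genes summed to 5985 and 6328 in the vehicle libraries and to 7949 and 7958 with carfilzomib, a rise of 29.2% in the mean. Gapdh makes up much of that sum, and without it the sums were 3435 and 3560, then 4531 and 4516, a rise of 29.3%. Aldoa and Pkm, with split counts like Gapdh, are large parts of what remains. Their means were 851 and 648 FPKM in vehicle and 1220 and 971 FPKM with carfilzomib. No sum was made without them. The citrate cycle genes summed to 1405 and 1412 FPKM in vehicle and to 1107 and 1127 FPKM with carfilzomib, and the mean fell by 20.7%. Glucose entry genes summed to 193 and 200 FPKM and then to 178 and 174 FPKM, and lactate genes to 1098 and 1094 FPKM and then to 972 and 996 FPKM. The pyruvate entry and dehydrogenase genes, at 566 and 559 FPKM and then 528 and 552 FPKM, had a change in the mean of -4.06% (log2 -0.06). That value depended on the scale and the library: it was -0.21 in summed CPM, -0.03 without carfilzomib library 1 and -0.09 without carfilzomib library 2 (log2). In all 5 steps the 2 groups' sums did not overlap. These sums have no test, since an exact permutation of 2 libraries against 2 cannot give p below 0.333.

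**Figure D2:**
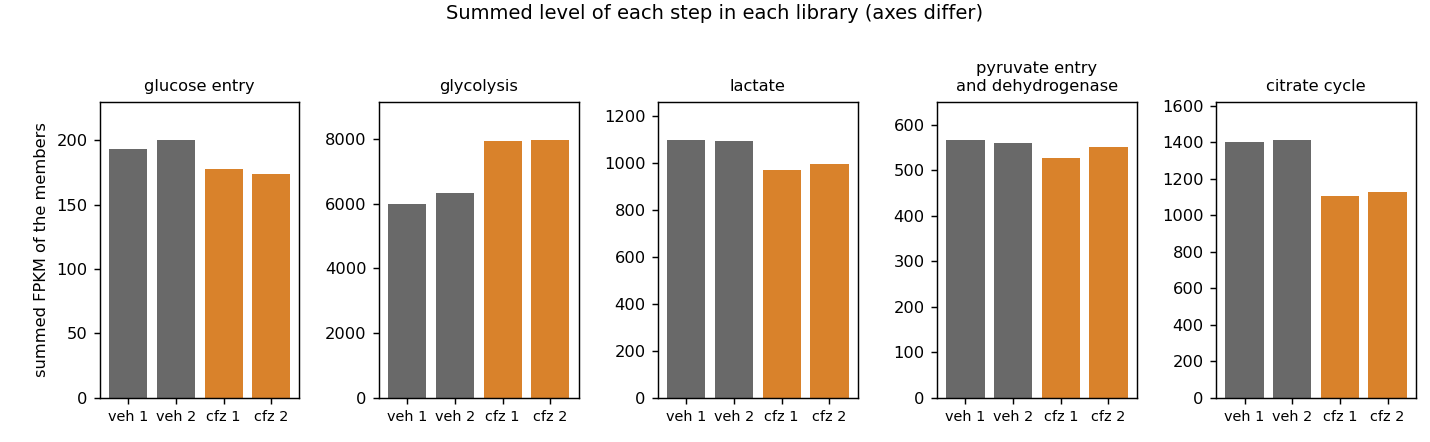
Summed FPKM of the members of each of the 5 steps in each library (bars; veh, vehicle; cfz, carfilzomib), each panel with its own axis from 0. Glycolysis is higher in both carfilzomib libraries, at 7949 and 7958 against 5985 and 6328, and the other 4 steps are lower in both.

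Glucose crosses the membrane by facilitative transporters and is trapped by hexokinase. Slc2a1, which encodes the widespread transporter GLUT1, stood at 180 and 190 CPM in vehicle and at 151 and 150 CPM with carfilzomib. It fell by 0.29 ± 0.04 on the log2 scale (SE; edgeR, adjusted p 4.6e-05). Slc2a4, the insulin-responsive transporter GLUT4 of muscle, was low at 14.6 and 16.6 CPM and then 11.6 and 11.5 CPM, and it fell by 0.43 ± 0.10 (adjusted p 0.00236 in edgeR). Both transporters were thus lower in both treated libraries, and GLUT4 kept a share of 7.27% to 8.22% of their joint FPKM in all 4 libraries. Hk1, the hexokinase that predominates in these cells per length, was at 335 and 342 CPM and then 310 and 298 CPM, a change of -0.15 ± 0.04 (edgeR adjusted p 0.0042). That call rests on carfilzomib library 2, since without it the change was -0.12 with an adjusted p of 0.107 in edgeR. Hk2, the insulin-responsive hexokinase of muscle, was at 68.3 and 70.7 CPM and then 74.0 and 71.1 CPM and did not pass, with an interval of -0.06 to 0.18. Its share of hexokinase FPKM was 11.6% and 11.9% in vehicle and 13.5% in both treated libraries.

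In the upper part of glycolysis, isomerase and aldolase rose while the phosphofructokinase genes divided. Gpi, glucose phosphate isomerase, was at 609 and 653 CPM in vehicle and 818 and 810 CPM with carfilzomib, a rise of 0.37 ± 0.04 (edgeR adjusted p 2.64e-06). The muscle phosphofructokinase Pfkm rose from 108 and 107 CPM to 122 and 124 CPM (0.19 ± 0.05, edgeR adjusted p 0.00244). The platelet form Pfkp fell from 317 and 323 CPM to 240 and 253 CPM (-0.38 ± 0.04, edgeR adjusted p 1.98e-06). The muscle and platelet forms thus moved apart, with no overlap between groups in either gene. The liver form Pfkl, at 97.6 and 96.6 CPM and then 90.1 and 87.1 CPM, changed by -0.13 ± 0.05 with an adjusted p of 0.0363 in edgeR, and lost its call whichever library was left out (adjusted p 0.0612 to 0.25). Per length, Pfkp made up 61.1% and 61.8% of the 3 genes' FPKM in vehicle and 53.6% and 55.0% with carfilzomib, while Pfkm went from 20.4% and 20.1% to 26.7% and 26.4%. The joint FPKM of the 3 genes was 195 in both vehicle libraries and 171 and 177 with carfilzomib, so the muscle form took a larger share of a smaller sum.

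Pfkfb2 had the largest rise of the 39 genes. It encodes the heart form of the enzyme that makes and removes the allosteric activator of phosphofructokinase. It stood at 26.2 and 25.0 CPM in vehicle and at 45.4 and 51.2 CPM with carfilzomib, a 1.89-fold rise (log2 0.92 ± 0.07, edgeR adjusted p 3.94e-08). Of all tested genes 13.8% had a larger change in either direction. Its level per length was low, at a mean of 4.09 FPKM in vehicle and 8.11 FPKM with carfilzomib, and its counts are split. Aldoa, the aldolase of muscle, rose 1.40-fold, from 1148 and 1242 CPM to 1684 and 1654 CPM (log2 0.48 ± 0.04, edgeR adjusted p 1.83e-07). Tpi1, triose phosphate isomerase, went the other way, from 341 and 349 CPM to 285 and 287 CPM (-0.27 ± 0.04, edgeR adjusted p 2.86e-05). The ratio of Aldoa to Tpi1 in FPKM, enzymes that act in turn, was 3.39 and 3.59 in vehicle and 5.98 and 5.84 with carfilzomib; both genes have split counts.

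The lower part of glycolysis rose at every enzyme, in at least 1 form. Gapdh, glyceraldehyde phosphate dehydrogenase and a common reference gene in expression assays, was at 3163 and 3446 CPM in vehicle and 4154 and 4176 CPM with carfilzomib, a rise of 0.33 ± 0.04 (edgeR adjusted p 1.15e-05). It was the most abundant of the 39 genes per length, at a mean of 2659 ± 154 FPKM (SD, n = 2) and then 3431 ± 16.7 FPKM. Pgk1, phosphoglycerate kinase, rose from 453 and 442 CPM to 508 and 537 CPM (0.22 ± 0.04, edgeR adjusted p 0.000271). Pgam1, the widespread phosphoglycerate mutase, rose 1.58-fold, from 478 and 486 CPM to 764 and 758 CPM (log2 0.66 ± 0.04, edgeR adjusted p 1.34e-09). Its treated libraries differed by far less than the gap between groups. The muscle mutase Pgam2 was scarce, at 4.58 and 4.76 CPM and then 3.83 and 3.76 CPM, and did not pass (-0.30 ± 0.17, edgeR adjusted p 0.143), so its share of mutase FPKM went from 2.22% and 2.27% to 1.17% and 1.16%. Eno1, the widespread enolase, was at 1150 and 1173 CPM and then 1250 and 1238 CPM, a change of 0.10 ± 0.04 with an adjusted p of 0.0354 in edgeR; that p was 0.0567 without vehicle library 1, 0.185 without carfilzomib library 1 and 0.117 without carfilzomib library 2. The muscle enolase Eno3, at 7.22 and 8.17 CPM and then 7.70 and 7.26 CPM, had overlapping groups and was under 1% of enolase FPKM in every library. Pkm, pyruvate kinase, closed the pathway with a 1.45-fold rise, from 1422 and 1491 CPM to 2133 and 2097 CPM (log2 0.54 ± 0.04, edgeR adjusted p 2.3e-08). The table does not separate the M1 and M2 transcripts of Pkm.

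**Figure D3:**
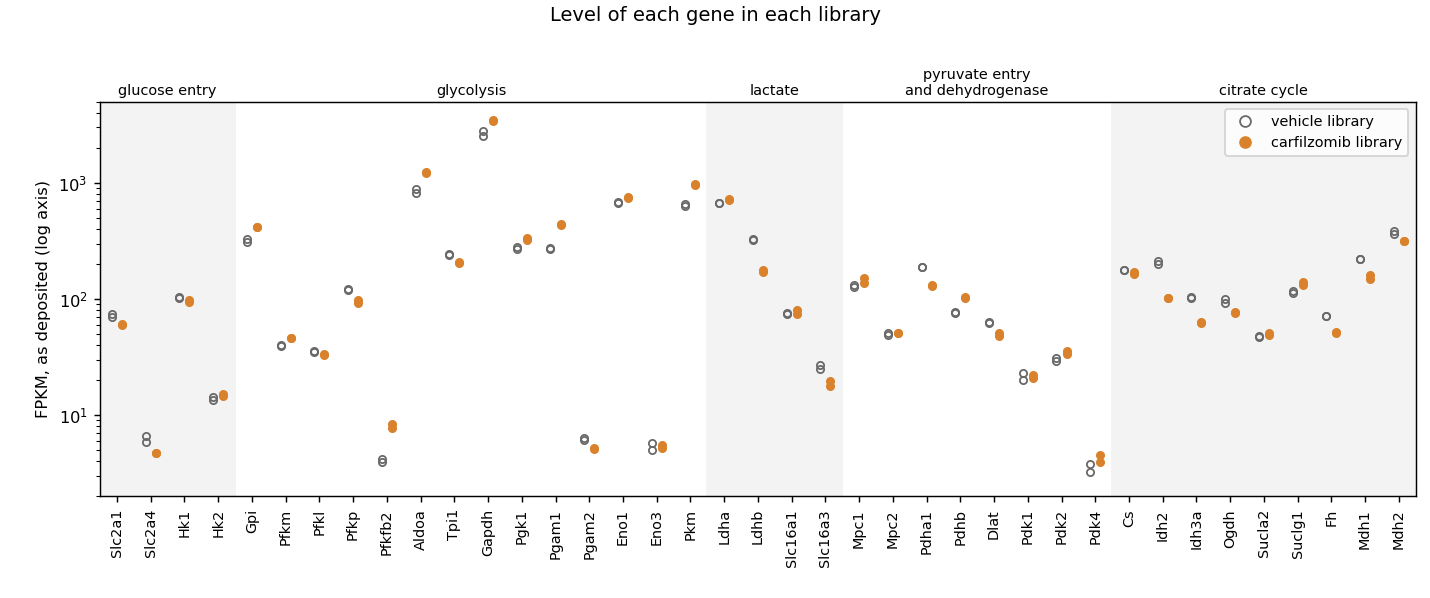
FPKM of each of the 39 genes in each library, on a log axis, along the pathway (open circles, vehicle; filled circles, carfilzomib). Gapdh is highest, at a mean of 2659 FPKM in vehicle and 3431 FPKM with carfilzomib, Pdk4 is lowest in vehicle at 3.51 FPKM, and the gap between groups is widest for Pfkfb2, Pgam1, Ldhb, Idh2 and Idh3a.

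At the lactate step the 2 subunits of lactate dehydrogenase parted. Ldhb, the heart subunit, was at 419 and 423 CPM in vehicle and 219 and 227 CPM with carfilzomib, a 1.89-fold fall (log2 -0.92 ± 0.04, edgeR adjusted p 6.69e-11). Ldha, the muscle subunit, was at 1055 and 1049 CPM and then 1081 and 1101 CPM and did not pass (0.05 ± 0.04, edgeR adjusted p 0.242), with an interval of -0.03 to 0.13. In FPKM the ratio of Ldha to Ldhb was 2.08 and 2.05 in vehicle and 4.09 and 4.0 with carfilzomib. Ldhb thereby went from 32.4% and 32.8% of the joint FPKM to 19.6% and 20.0%, while Ldha itself had no called change. The lactate exporter of glycolytic muscle, Slc16a3 (MCT4), fell from 54.1 and 59.2 CPM to 42.0 and 38.1 CPM (-0.50 ± 0.07, edgeR adjusted p 1.93e-05). Slc16a1 (MCT1), which moves lactate either way, stood at 236 and 233 CPM and then 229 and 243 CPM, with overlapping groups and an adjusted p of 0.863 in edgeR. Slc16a3 made up 24.7% and 26.9% of the transporters' FPKM in vehicle and 20.9% and 18.2% with carfilzomib.

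Because the lactate dehydrogenase genes differed in response, the 200 bases before their RefSeq start sites in the GRCr8 assembly are shown, 5′ to 3′. Capitals mark ACGTG, a form of the core of the site bound by hypoxia-inducible factors, on either strand, where CACGT is its reverse. The other form, GCGTG, is not marked and was not counted. Ldha lies on the plus strand at chr1:106507892-106508091 and Ldhb on the minus strand at chr4:177177409-177177608.
Ldha: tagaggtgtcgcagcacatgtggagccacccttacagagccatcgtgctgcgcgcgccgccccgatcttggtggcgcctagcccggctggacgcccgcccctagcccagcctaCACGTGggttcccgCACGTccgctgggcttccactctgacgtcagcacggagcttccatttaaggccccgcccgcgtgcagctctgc
Ldhb: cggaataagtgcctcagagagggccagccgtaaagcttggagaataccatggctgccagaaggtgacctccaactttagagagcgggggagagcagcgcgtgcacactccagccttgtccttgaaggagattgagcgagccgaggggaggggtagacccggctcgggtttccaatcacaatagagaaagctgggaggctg
The Ldha window holds 3 matches to ACGTG, a pair of which overlap in the palindrome CACGTG, the E-box, and the Ldhb window holds none. Both windows hold the unmarked GCGTG. A match is a run of letters and not evidence of binding.

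Entry of pyruvate into the mitochondrion showed little change, and the subunits of pyruvate dehydrogenase moved apart. The pyruvate carrier genes Mpc1, at 113 and 108 CPM and then 113 and 126 CPM, and Mpc2, at 43.7 and 45.1 CPM and then 44.5 and 44.8 CPM, did not pass (edgeR adjusted p 0.0934 and 0.909). Mpc1 passed without carfilzomib library 1, at 0.19 with an adjusted p of 0.0332 in edgeR. Pdha1, the catalytic alpha subunit that PDK kinases phosphorylate, was at 528 and 530 CPM in vehicle and 356 and 364 CPM with carfilzomib, a 1.47-fold fall (log2 -0.55 ± 0.04, edgeR adjusted p 1.18e-08). Pdhb, the beta subunit with which it pairs, rose 1.32-fold, from 124 and 124 CPM to 162 and 166 CPM (log2 0.40 ± 0.04, edgeR adjusted p 1.39e-06). Neither gene's groups overlapped, and replicates differed by a small part of the gap. The FPKM of Pdhb was 0.408 and 0.404 of that of Pdha1, which has split counts, in vehicle and 0.788 and 0.789 with carfilzomib. Dlat, the acetyltransferase core of the complex, fell from 162 and 162 CPM to 122 and 129 CPM (-0.37 ± 0.05, edgeR adjusted p 5.09e-06). Pdhx and Dld, subunits of the complex read from a further list, rose by 0.40 ± 0.07 and 0.26 ± 0.05 (edgeR adjusted p 0.000138 and 0.000538).

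The PDK kinases, which switch the complex off, showed no common direction. Pdk2 was at 62.3 and 66.6 CPM in vehicle and 74.9 and 69.3 CPM with carfilzomib, a change of 0.16 ± 0.06 with an adjusted p of 0.0359 in edgeR; without vehicle library 1 that p was 0.197 and without carfilzomib library 1 it was 0.29. Pdk1, with split counts, was at 60.2 and 53.8 CPM and then 51.8 and 54.7 CPM, and its groups overlapped. Pdk4, the form raised by fasting and fatty acids in the adult heart, was scarce at 5.22 and 4.55 CPM and then 5.4 and 6.2 CPM (0.25 ± 0.16, edgeR adjusted p 0.204). Their shares of kinase FPKM overlapped between groups: Pdk1 took 36.6% to 40.9% in vehicle and 34.4% to 36.8% with carfilzomib, and Pdk4 5.99% to 6.72% and then 6.50% to 7.61%.

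The corresponding windows of the paired dehydrogenase subunits, again with ACGTG on either strand in capitals, are shown because the pair moved in opposite directions. Pdhb lies on the plus strand at chr15:19182589-19182788 and Pdha1 on the plus strand at chrX:38508958-38509157. Pgam1, which rose most among the members with whole counts, lies on the plus strand at chr1:250672952-250673151. Pfkfb2, with split counts, rose more and is not shown, and its window held no ACGTG. Pdha1 also has split counts.
Pdhb: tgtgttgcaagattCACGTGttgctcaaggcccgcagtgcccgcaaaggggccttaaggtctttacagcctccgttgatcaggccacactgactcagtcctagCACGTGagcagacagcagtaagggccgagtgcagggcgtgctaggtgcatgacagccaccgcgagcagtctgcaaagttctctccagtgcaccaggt
Pdha1: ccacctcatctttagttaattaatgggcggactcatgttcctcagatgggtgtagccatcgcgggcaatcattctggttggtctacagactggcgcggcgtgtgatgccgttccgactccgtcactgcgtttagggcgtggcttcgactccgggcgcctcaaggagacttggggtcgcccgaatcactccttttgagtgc
Pgam1: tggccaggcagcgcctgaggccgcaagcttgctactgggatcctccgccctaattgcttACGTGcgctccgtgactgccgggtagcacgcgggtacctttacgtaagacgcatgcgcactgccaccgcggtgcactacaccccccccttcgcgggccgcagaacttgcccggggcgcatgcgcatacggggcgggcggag
Pdhb holds 4 matches to ACGTG, which are 2 copies of the E-box CACGTG read on both strands, Pgam1 holds 1, and Pdha1 holds none. The unmarked GCGTG, on either strand, is in all of these windows. Across the whole RefSeq window of 300 bases, from 250 before to 50 after the start, 36 of the 39 genes had a sequence; Slc2a4, Pgk1 and Idh3a had none. ACGTG on either strand was in 16 of these 36 (44.4%), against 26.1% of 11307 tested genes with a window and 20.9% of all 27457 genes with one. By call, 8 of 11 members that rose (72.7%), 5 of 15 that fell (33.3%) and 3 of 10 that did not pass (30.0%) held it. The shares among all tested genes that rose or fell were not counted, so these 3 shares have no background. A gene with several windows was counted if any of them held a match. In Gpi and Eno1, which rose, the match lay 33 and 39 bases after the start. The 5 that fell were Slc2a1, Hk1, Dlat, Ogdh and Fh. CACGTG, which contains ACGTG, was in 13.9% of members and 9.67% of tested genes. TGACNNNGC, the core of the antioxidant response element, was in 19.4% of members and 15.3% of tested genes, and TCAAGGTCA, a site of oestrogen-related receptors, was in 0 of 36 members and 0.265% of tested genes. These shares are descriptions, and no test was made of them.

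**Figure D4:**
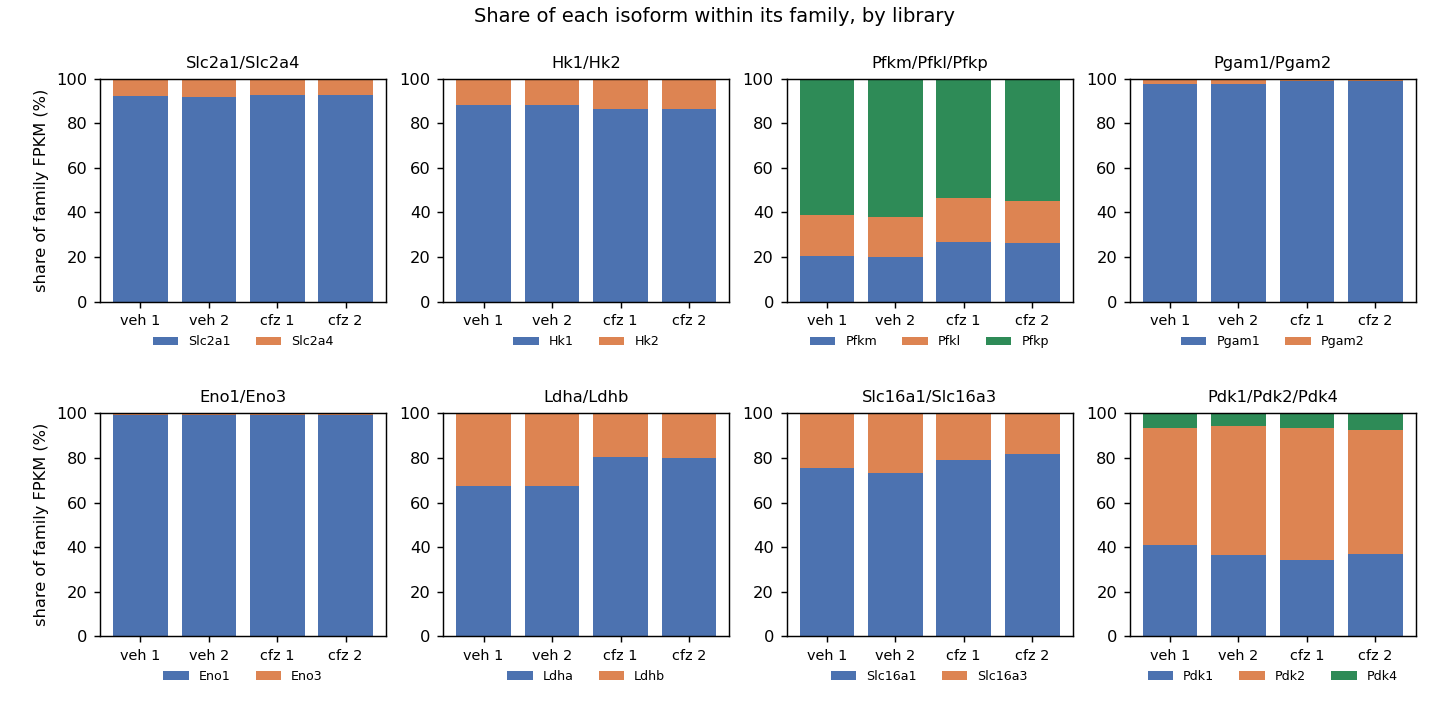
Share of each isoform in the summed FPKM of its family, in percent, in each library (veh, vehicle; cfz, carfilzomib), for 8 families. Ldhb shrinks from 32.4% and 32.8% to 19.6% and 20.0% and Pfkp from 61.1% and 61.8% to 53.6% and 55.0%, while the shares of Slc2a4 change little and those of Pdk1 overlap between groups.

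In the citrate cycle the largest falls were at isocitrate dehydrogenase. Idh2, the mitochondrial form that makes NADPH, was at 326 and 347 CPM in vehicle and 163 and 165 CPM with carfilzomib, a 2.05-fold fall (log2 -1.04 ± 0.04, edgeR adjusted p 3.9e-11) and the largest change among the 39 genes. Of all tested genes 10.8% had a larger change. Idh3a, the catalytic subunit of the form that makes NADH for the cycle, fell 1.67-fold, from 249 and 245 CPM to 145 and 150 CPM (log2 -0.74 ± 0.04, edgeR adjusted p 1.21e-09). Both genes have whole counts and kept their calls under all 12 alternative analyses.

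The other members of this step changed less than Idh2 and Idh3a. Mdh1, the cytosolic malate dehydrogenase of the malate-aspartate shuttle, fell 1.46-fold, from 411 and 405 CPM to 271 and 290 CPM (log2 -0.54 ± 0.04, edgeR adjusted p 4.52e-08). Mdh2, its mitochondrial counterpart, fell from 460 and 481 CPM to 386 and 389 CPM (-0.28 ± 0.04, edgeR adjusted p 2.6e-05). Fh, fumarase, fell from 110 CPM in both vehicle libraries to 79.1 and 76.9 CPM (-0.50 ± 0.05, edgeR adjusted p 7.35e-07). These falls were each larger than the spread between libraries. Ogdh, the first subunit of the oxoglutarate dehydrogenase complex, fell from 397 and 357 CPM to 292 and 296 CPM (-0.36 ± 0.05, edgeR adjusted p 1.96e-05), with split counts. Cs, citrate synthase and a common index of mitochondrial content, was at 260 and 259 CPM and then 234 and 247 CPM, a change of -0.11 ± 0.04 with an adjusted p of 0.0348 in edgeR. It lost its call whichever library was left out, at adjusted p values of 0.0523 to 0.358. Suclg1, the alpha subunit of succinyl-CoA ligase, was the exception in direction and rose from 140 and 135 CPM to 165 and 154 CPM (0.21 ± 0.05, edgeR adjusted p 0.00125). Of its beta partners, Sucla2, at 98.6 and 97.6 CPM and then 99.9 and 103 CPM, did not pass. The other, Suclg2, read from a further list, fell from 103 and 107 CPM to 83.2 and 89.9 CPM (-0.28 ± 0.05, edgeR adjusted p 0.0004).

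Other genes of glucose use were read from further lists, which were also chosen with results of these data known. Their counts stand beside the 30.6% of all tested genes that rose and the 30.1% that fell, 60.7% in all. The pentose phosphate pathway, which branches off above Gpi and yields NADPH and ribose, had 7 of 8 genes higher and 1 lower, with a median log2 fold change of 0.37. Pgd, phosphogluconate dehydrogenase, rose from 164 and 179 CPM to 373 and 370 CPM (1.12 ± 0.05, edgeR adjusted p 2.51e-11), and Taldo1, transaldolase, rose by 0.73 ± 0.04. Pgls, with split counts, was the gene that fell, by 0.47 ± 0.07. In the further citrate cycle genes 11 of 14 fell and 2 rose, with a median of -0.27. Sdhd, a subunit of succinate dehydrogenase, fell from 176 and 179 CPM to 124 and 130 CPM (-0.48 ± 0.04). The cytosolic Idh1 rose by 0.39 ± 0.05 and Idh3b, a regulatory partner of Idh3a, by 0.26 ± 0.05, both against the direction of Idh2 and Idh3a. Of the shuttle genes 5 of 8 fell and 1 rose, with a median of -0.27. Got1, the cytosolic aspartate aminotransferase that works beside Mdh1, fell from 164 and 158 CPM to 89.7 and 91.5 CPM (-0.83 ± 0.05), the carrier Slc25a10, with split counts, fell by 0.99 ± 0.07, and the aspartate-glutamate carrier Slc25a12 rose by 0.27 ± 0.06.

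The further glycolytic genes gave other counts than the glycolysis members, and this difference was not tested. Of 14 tested, out of 19 listed, 3 rose and 7 fell (71.4% called), with a median of -0.22. The brain-type aldolase Aldoc fell from 35.3 and 39.8 CPM to 20.2 and 20.9 CPM (-0.87 ± 0.08), and the transporter Slc2a3 fell by 0.59 ± 0.11. Bpgm rose by 0.22 ± 0.06 and the neuronal enolase Eno2 by 0.57 ± 0.15, the latter with an adjusted p of 0.0364 in edgeR, and both Slc2a3 and Eno2 have split counts. Among 17 further pyruvate and lactate genes 6 rose and 6 fell (70.6% called), with a median of 0.01, near the background of 60.7% of all tested genes. Me1, the cytosolic malic enzyme that makes NADPH, rose from 139 and 133 CPM to 268 and 278 CPM (1.00 ± 0.04), and Me2, with split counts, by 0.49 ± 0.06. Pck2, the mitochondrial phosphoenolpyruvate carboxykinase, fell from 68.5 and 67.9 CPM to 27.6 and 27.2 CPM (-1.32 ± 0.06), and the alanine aminotransferase Gpt2 fell by 0.57 ± 0.08. Of 16 tested glycogen genes 5 rose and 6 fell (68.8% called), with a median of 0.00, also near that background. The lysosomal glucosidase Gaa rose from 152 and 167 CPM to 409 and 409 CPM (1.36 ± 0.05) and the phosphorylase Pygl by 1.10 ± 0.06. The glycogen primer gene Gyg1 fell from 495 and 497 CPM to 253 and 257 CPM (-0.96 ± 0.04), and the synthase Gys1 by 0.39 ± 0.05.

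Genes that respond to or direct glucose use moved in both directions. Of 14 targets of hypoxia-inducible factors outside the 39 genes 4 rose and 4 fell (57.1% called, near the 60.7% of all tested genes), with a median of -0.07. The mitophagy receptor Bnip3 rose by 1.3 ± 0.05 and the demethylase Kdm3a by 0.46 ± 0.07, while Vegfa fell by 0.57 ± 0.05 and the collagen hydroxylase P4ha2 by 0.30 ± 0.05. DESeq2 called 2 of the 14 higher, and without carfilzomib library 1 edgeR called 2 lower. Of 23 regulators tested 6 rose and 12 fell (78.3% called), with a median of -0.15. Hif1a rose from 137 and 132 CPM to 192 and 210 CPM (0.58 ± 0.05), and Tigar, a brake on glycolysis, by 0.57 ± 0.07. Epas1, the relative of Hif1a, fell from 76.9 and 76.1 CPM to 43.0 and 45.2 CPM (-0.79 ± 0.06). Esrra, the oestrogen-related receptor that directs mitochondrial genes and has split counts, fell by 0.57 ± 0.06. The 2 factor genes Hif1a and Epas1 moved in opposite directions. RNA levels alone were measured, and neither protein nor flux was.

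**Figure D5:**
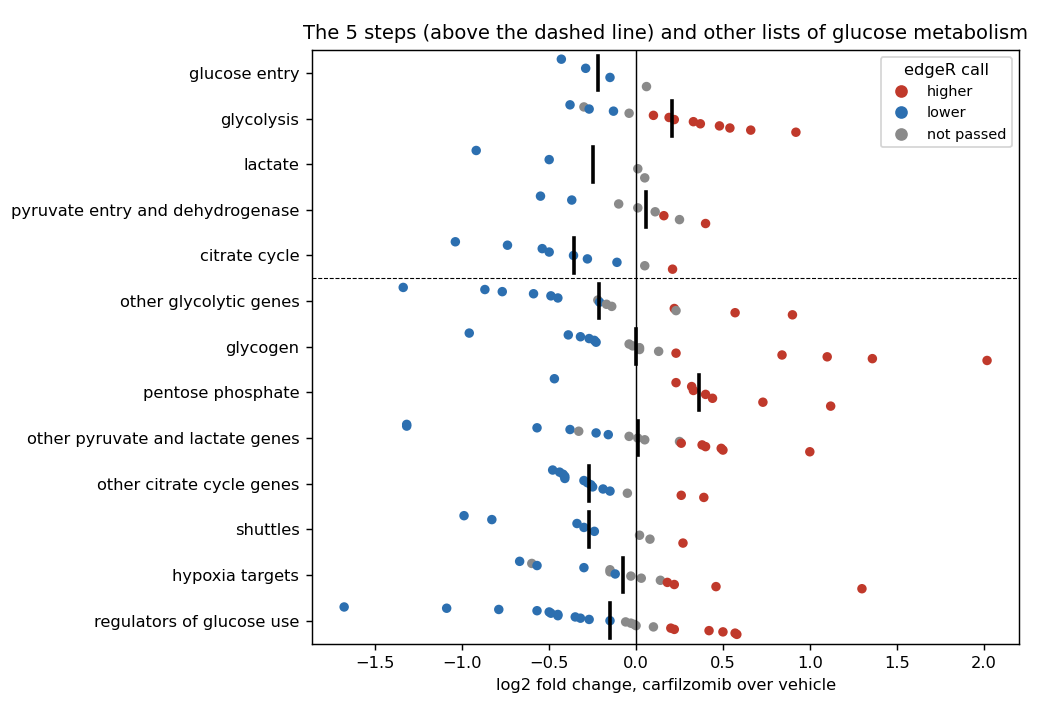
Log2 fold change, carfilzomib over vehicle, of every tested gene in the 5 steps (above the dashed line) and in 8 further lists (points, coloured by edgeR call), with the median of each list (black bar). The medians of glycolysis at 0.21 and pentose phosphate at 0.37 lie to the right of 0, those of the citrate cycle at -0.36 and its further genes at -0.27 to the left.

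The authors' deposited table of differential genes lists 25 of the 39 genes, 11 as higher and 14 as lower, and all 25 had the same direction and a call in edgeR. Slc2a4, Pfkl, Pdk2 and Cs passed in edgeR and are not in the authors' deposited table, whose highest q-value is 0.0499. For Idh2 the authors' deposited table gives a log2 fold change of -1.03, for Ldhb -0.91 and for Pfkfb2 0.92.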

How the data were processed

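RNA of 4 libraries, 2 per group, was analysed from gene-level values. The authors deposited estimated counts, not all whole, with FPKM and TPM for the same genes, and a list of differential genes with log2 fold changes, p-values and q-values. The submitters' processing notes name the build Rnor_6.0, HISAT and Bowtie2, featureCounts 1.6.0, cutadapt 2.0, FastQC 0.11.8, R 3.3.2 and DESeq2, with no roles. Deposited TPM and the authors' group means (10 columns in all) were not used.

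The members and further lists were chosen with earlier results of these data known. Counts were rounded and tested in edgeR 4.0.16 (R 4.3.3), by glmQLFit (robust) and glmQLFTest with TMM factors (0.987 to 1.01) over 14519 genes kept by filterByExpr (minimum count 10, total 15), with Benjamini-Hochberg adjustment at 0.05. The biological coefficient of variation was 0.0465, with 2 residual degrees of freedom. Levels between genes and isoform shares used the deposited FPKM, and cell type markers were given in CPM with some vehicle means in FPKM. A count was called split where it lay more than 1e-06 from a whole number in any library. Values by library were given for the 2 called members with the largest rises and falls of each step and for every isoform family, and each further list is represented by the 2 largest rises and falls among called genes of at least 10 CPM, by library or as a log2 change with its SE. One gene that this rule names is not reported here. One regulator of 24 was not matched. Alternatives were DESeq2 1.42.0, limma-voom (limma 3.58.1), RLE factors, library size alone, no filter, a stricter filter (1 CPM in 2 libraries and a total of 50), glmTreat, a replicate block and leaving out each library; counting only members without split reads was added after seeing the data. Promoter windows are from RefSeq (GRCr8), which differs from the authors' build, and were matched by gene ID.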

Additional observations from a re-analysis of the deposited data

How the results depend on the processing

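No result changed direction among those called. Against a 1.2-fold change (edgeR's glmTreat) 6 members rose and 10 fell instead of 12 and 17. By step this left 0 of 4 glucose entry genes lower (1 at an unadjusted p under 0.05, and 3 by DESeq2 and limma-voom), 5 glycolysis genes higher and 1 lower, 1 pyruvate entry and dehydrogenase gene higher, and 0 citrate cycle genes higher (0 unadjusted, and 1 by DESeq2 and limma-voom). All tested genes gave 5320 calls instead of 8812. DESeq2 called 26 members, and it and the replicate block left 1 pyruvate entry and dehydrogenase gene higher instead of 2, Pdhb. With library size alone that count was 3, since Mpc1 also passed (0.15, edgeR adjusted p 0.0348). DESeq2 called 2 hypoxia targets higher instead of 4.

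Replicate numbers are shared by the groups, and the deviations of same-numbered libraries had a correlation of -0.00011 over tested genes. With a single difference per group this cannot exclude a shared culture or batch, and the main test used no pairing. With the replicate block 25 members passed. Leaving out 1 library gave 10 to 12 members higher and 14 to 15 lower, 1 to 2 pyruvate entry and dehydrogenase genes higher (1 without vehicle library 1), 2 glycolysis genes lower, 2 to 3 glucose entry genes lower, and 2 to 4 hypoxia targets lower, with 2 when carfilzomib library 1 was left out. Of 29 called members 24 kept their call whichever library was left out; the exceptions were Hk1, Pfkl, Eno1, Pdk2 and Cs. Under all 12 alternatives 16 kept it. The 29 members without split reads gave 8 higher and 13 lower, beside 2947 and 2973 of all 9300 tested genes without split reads.

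Summed as CPM in place of FPKM, the pyruvate entry and dehydrogenase genes changed by -0.21 instead of -0.06 and the citrate cycle by -0.40 instead of -0.33 (log2). The scarce members Pgam2, Eno3 and Pdk4 had standard errors of 0.17, 0.13 and 0.16, against 0.04 for abundant ones such as Gapdh.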
